A study of Mus with 6 samples.

Results

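Of the 10995 protein-coding genes listed for activated mouse CD4+ T cells, the 5 genes described here are the immediate early response (IER) genes Ier2, Ier3, Ier5 and Ier5l and the activation marker gene Cd69. They were chosen by symbol, with their differences between the treatments known, because Ier2, Ier5 and Ier5l moved in different directions. All 5 symbols of the rule were found. The values that chose them are given as a description and were not tested. Naive CD4+ T cells (CD44-CD62L+) from the spleens of wild-type mice were activated with anti-CD3 (5 μg/mL), anti-CD28 (2 μg/mL) and IL-2 (100 U/mL) and given either anti–VEGF-B or normal goat IgG, each at 1 μg/mL, for 3 days. Whether the antibody was added together with the stimulus or after it is described differently in different places of the study. There were 3 RNA-Seq libraries for each treatment, and nothing states that they came from separate mice, so the spread between them may be technical. All libraries, the controls included, come from stimulated cells with IL-2, and unstimulated cells were not analysed here. The comparison asks what neutralizing VEGF-B, a growth factor of the VEGF family, changes in the RNA of these cells.

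Immediate early genes are switched on within minutes of a stimulus without new protein synthesis, mostly through the ERK kinases and the factors SRF and CREB, and their RNAs are usually short lived. Ier2, Ier5 and Ier5l encode related proteins that share the N-terminal IER domain. IER2 and IER5 bind protein phosphatase PP2A with its B55 subunits, and IER5 guides PP2A to targets such as HSF1, the master factor of the heat shock response. Ier3, also known as IEX-1, has an IER name but an unrelated protein, which modulates survival and ERK signaling. Cd69 encodes a C-type lectin that appears early on activated lymphocytes and holds back S1PR1, the receptor that lets them leave lymphoid tissue.

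The values are FPKM, that is, read fragments relative to the length of the transcript and the size of the library. No depth comes with them, so the precision from counting is unknown and errors rest on the spread between replicates. The FPKM of the table summed to between 260060 and 276620 in each library. Log2 fold changes are differences in the mean log2(FPKM + 1), anti–VEGF-B minus IgG, and understate the change of genes with low FPKM. A filter that kept genes averaging 1 FPKM or more left 8816 to test, and limma with Benjamini-Hochberg adjustment called 2528 of them at an adjusted p under 0.05, 2099 lower and 429 higher with anti–VEGF-B. These are 28.7% of the genes tested, with 23.8% called lower and 4.87% higher. Standard errors are the moderated ones of limma, which also draw on the spread of the other genes tested. Over all genes tested the log2 fold change had a median of -0.15. Quantile normalization gave 913 lower and 880 higher calls, and median centring 807 and 1365. Leaving out anti–VEGF-B replicate 3 brought the number called to 865, and leaving out IgG replicate 2 to 1330.

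The libraries carried T cell RNA. Cd4 was at 68.4 ± 5.56 FPKM under IgG and 70.0 ± 4.56 under anti–VEGF-B (SD, n = 3 each), and the 8 T cell markers together summed to between 387 and 423 FPKM in the anti–VEGF-B and between 412 and 479 in the IgG libraries. Of these 8 markers 3 fell and none rose, where 23.8% of all genes tested were called lower and 4.87% higher. Their median log2 fold change was -0.26, against -0.15 for all genes tested. Thy1, a surface glycoprotein gene, fell from 28.4 ± 5.50 to 16.4 ± 1.62 FPKM (-0.75, limma adjusted p = 0.00768). The T cell receptor subunit gene Cd3e (-0.51, limma adjusted p = 0.0197) lost its call in 5 of 13 alternatives. Among them were those without anti–VEGF-B replicate 2 or 3 or IgG replicate 2 (0.0526 to 0.0708, against 0.0199 to 0.112 over the alternatives). Cd5, a gene for a brake on receptor signaling (-0.38, limma adjusted p = 0.0343), lost its call in 6 of 13. It was not called without any 1 of those libraries or IgG replicate 3 (0.0611 to 0.116, against 0.0242 to 0.197). The part of these markers in the differences of the 5 genes was not tested. Of 6 B cell markers 1 was listed, Cd79b, at 0.665 to 1.34 FPKM. Both CD8+ T cell markers summed to 2.29 to 4.69 FPKM, Eomes, the 1 listed of 4 NK cell markers, reached 0.203, and none of 3 red cell markers was listed. The 4 listed of 6 myeloid markers summed to between 4.69 and 5.85 FPKM in 5 libraries and to 20.6 in IgG replicate 3, where Lyz2 alone was at 16.4. Without IgG replicate 3 the log2 fold changes were -1.40 for Ier2, -0.94 for Ier5, 0.73 for Ier5l, -0.40 for Ier3 and -0.78 for Cd69. In each gene this library lay on the anti–VEGF-B side of its group mean, so leaving it out could only widen the difference. The part of myeloid RNA in the differences of the 5 genes was not tested.

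Ier2, Ier5, Ier3 and Cd69 were lower and Ier5l was higher with anti–VEGF-B, and in none of the 5 genes did the groups overlap. Of all genes tested, 49.0% had groups that did not overlap, 38.5% with anti–VEGF-B lower and 10.5% with it higher. As the genes were chosen on this contrast, nothing is read from their count of 4 lower and 1 higher. All 5 were above the filter on low values. In bulk libraries such as these, fewer cells with a transcript and less of it per cell cannot be told apart.

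Ier2 (ENSMUSG00000053560.4) lies on the minus strand of chromosome 8 of GRCm38, from 84661331 to 84662852. Its protein, IER2, is a nuclear immediate early protein. It stood at 52.8, 62.8 and 44.4 FPKM in IgG replicates 1 to 3 and at 23.0, 25.7 and 16.0 FPKM in anti–VEGF-B replicates 1 to 3. The lowest IgG library was thus well above the highest anti–VEGF-B library. The group means were 53.3 ± 9.22 and 21.6 ± 5.00 FPKM (SD, n = 3 each), a ratio of 0.404. The log2 fold change of -1.28 (standard error 0.173) was the furthest from 0 of the 5 genes, and 0.284% of the genes tested had a value as low or lower. Ier2 also varied more between replicates than most genes, with a within-group SD of 0.30 on the log2 scale that 95.0% of the genes tested did not exceed.

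Ier5 (ENSMUSG00000056708.5), on the minus strand of chromosome 1 from 155096361 to 155099636, followed Ier2 at a smaller size. It was at 32.2, 36.5 and 28.3 FPKM in the IgG libraries and at 18.5, 17.9 and 15.7 FPKM in the anti–VEGF-B libraries. The 2 groups stood apart, with replicate 3 the lowest in each. The means were 32.4 ± 4.10 and 17.4 ± 1.47 FPKM, a ratio of 0.538 and a log2 fold change of -0.85 (standard error 0.106). No more than 1.68% of the genes tested had a log2 fold change as low.

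Ier5l (ENSMUSG00000089762.3), the Ier5-like gene on the minus strand of chromosome 2 from 30471537 to 30474219, went the other way. It was at 27.2, 19.4 and 24.0 FPKM in the IgG libraries and at 35.9, 43.0 and 38.3 FPKM in the anti–VEGF-B libraries. Every anti–VEGF-B library was above every IgG library, and replicate 2 was at once the lowest with IgG and the highest with anti–VEGF-B. The means rose from 23.6 ± 3.94 to 39.0 ± 3.61 FPKM, a ratio of 1.66 and a log2 fold change of 0.71 (standard error 0.122). Of the genes tested, 99.6% had a log2 fold change at or below this value. The span of the gene in the table was 2683 bases and in RefSeq 1569 bases, and the transcript length behind its FPKM is not given in the sources used here, which bears on its level against other genes but not on its ratio between treatments.

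Ier3 (ENSMUSG00000003541.6), on the plus strand of chromosome 17 from 35821684 to 35822923, was by far the most abundant of the 5. It was at 523, 452 and 438 FPKM in the IgG libraries and at 384, 360 and 361 FPKM in the anti–VEGF-B libraries. The groups did not overlap, but the gap was narrow beside that of Ier2. The means were 471 ± 45.8 and 368 ± 13.4 FPKM, a ratio of 0.781. Its log2 fold change of -0.35 (standard error 0.0860) was not at the edge of the genes tested, 24.1% of which had a value as low or lower. After median centring, in which the median of all genes tested came to 0.049, it was -0.15.

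Cd69 (ENSMUSG00000030156.5), on the minus strand of chromosome 6 from 129267325 to 129275436, was the least abundant of the 5 and the least variable. It was at 11.3, 11.9 and 10.6 FPKM in the IgG libraries and at 6.53, 6.39 and 6.14 FPKM in the anti–VEGF-B libraries. Libraries of the same treatment lay within a narrow band, far from those of the other. The means were 11.3 ± 0.651 and 6.35 ± 0.198 FPKM, a ratio of 0.563 and a log2 fold change of -0.74 (standard error 0.0862). Its within-group SD was 0.061 on the log2 scale, and 8.05% of the genes tested had one as small or smaller.

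**Figure D1:**
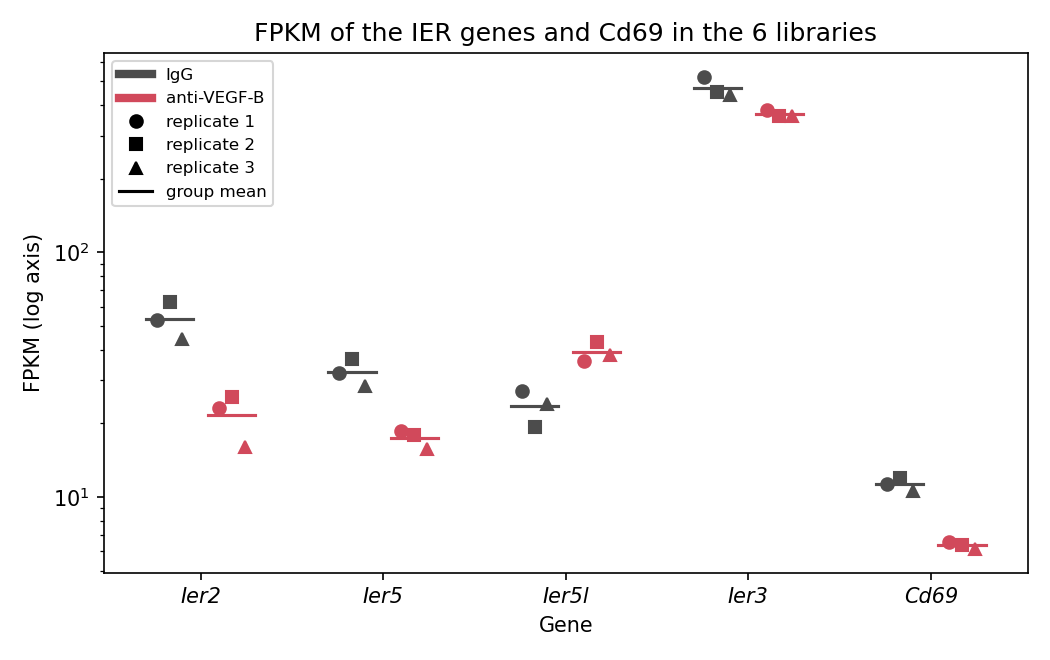
FPKM of Ier2, Ier5, Ier5l, Ier3 and Cd69 in each library (log axis), with IgG in grey, anti–VEGF-B in red, a marker shape for each replicate and a line at each group mean. Ier5l is the only gene of the 5 whose red points lie above its grey points, at 35.9 to 43.0 against 19.4 to 27.2 FPKM.

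**Figure D2:**
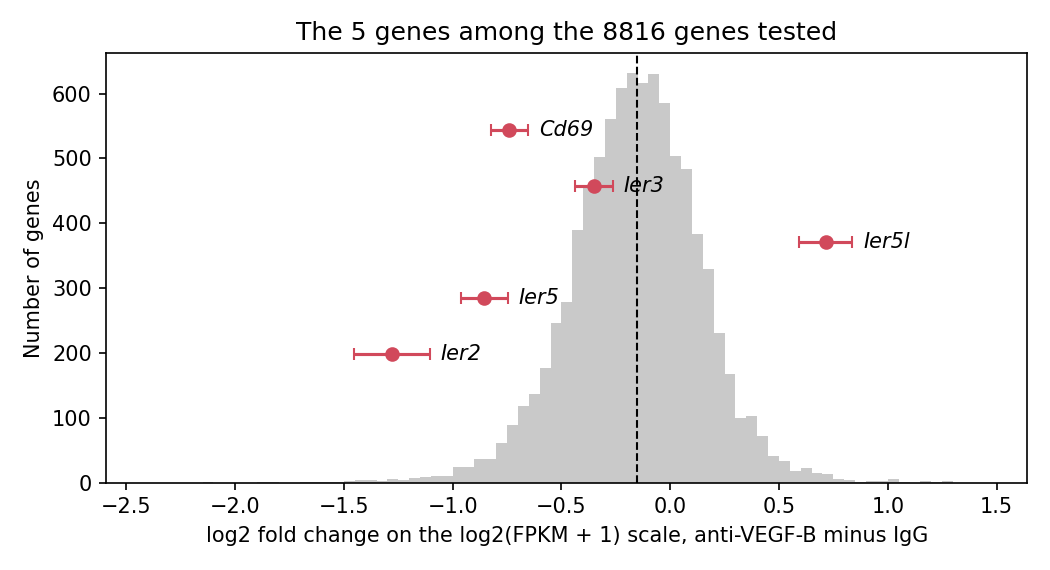
Log2 fold changes of the 5 genes (points, with moderated standard errors of limma as bars, placed at arbitrary heights) over a histogram of the log2 fold changes of the 8816 genes tested, with their median of -0.15 as a dashed line. Ier2, Ier5 and Cd69 lie in the left tail, Ier5l in the right tail and Ier3 within the bulk.

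The order of the levels in FPKM differed between the treatments. A place in this order rests on the transcript lengths behind FPKM, which are not given. With IgG it ran from Ier3 (471 FPKM) through Ier2 (53.3), Ier5 (32.4) and Ier5l (23.6) to Cd69 (11.3), and no neighbours in this order overlapped. With anti–VEGF-B it ran from Ier3 (368 FPKM) through Ier5l (39.0), Ier2 (21.6) and Ier5 (17.4) to Cd69 (6.35). Here Ier2, at 16.0 to 25.7 FPKM, overlapped Ier5, at 15.7 to 18.5, and the other neighbours did not overlap.

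A ratio of 2 genes in the same library does not depend on how libraries are scaled to each other. The ratio of Ier5 to Ier5l in FPKM was 1.18, 1.88 and 1.18 in the IgG libraries and 0.517, 0.417 and 0.411 in the anti–VEGF-B libraries. In FPKM, Ier5 was thus the higher of this related pair in every IgG library and Ier5l in every anti–VEGF-B library. Which gene is the higher rests on transcript lengths that are not given, but the change in a ratio between treatments does not. The ratio of Ier2 to Ier5l was 1.94, 3.24 and 1.85 with IgG and 0.642, 0.597 and 0.418 with anti–VEGF-B, and also lay on opposite sides of 1. On the log2(FPKM + 1) scale the difference between the groups was 1.57 for Ier5l against Ier5 and 1.99 for Ier5l against Ier2. Ier2 and Ier5, which were lower together, were not lower to the same extent. Their ratio was 1.64, 1.72 and 1.57 with IgG and 1.24, 1.43 and 1.02 with anti–VEGF-B, a difference of -0.43 on the log2 scale. The ratio of Ier5 to Cd69 hardly moved, at 2.84, 3.07 and 2.67 with IgG and 2.84, 2.80 and 2.57 with anti–VEGF-B, with groups that overlapped.

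**Figure D3:**
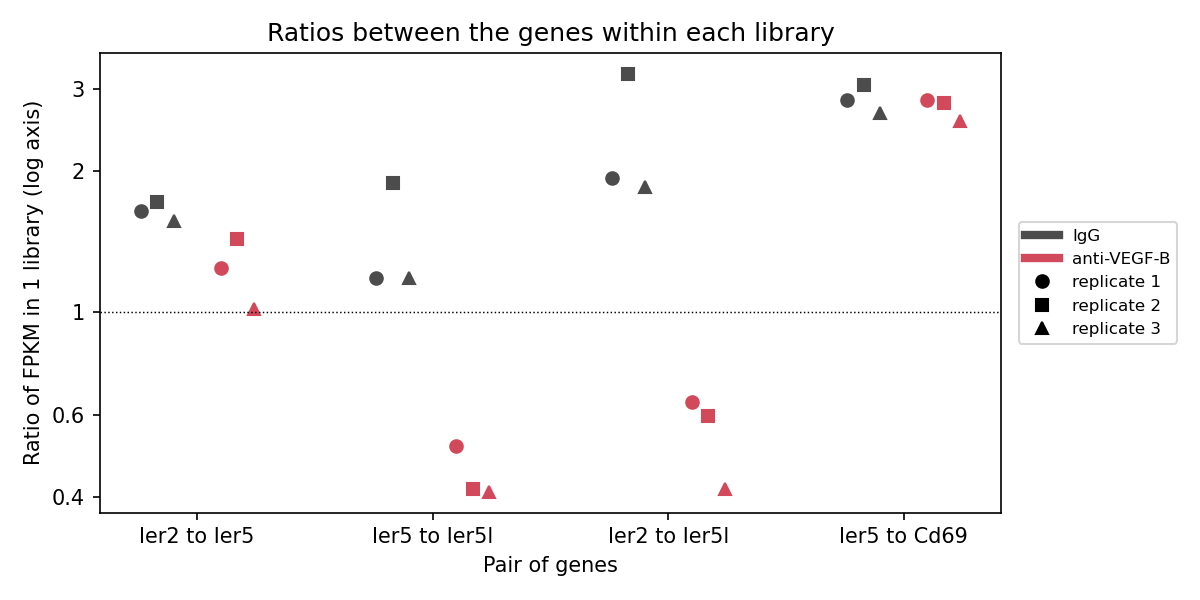
Ratio of FPKM between pairs of the genes within each library (log axis, dotted line at 1), with IgG in grey, anti–VEGF-B in red and a marker shape for each replicate. Ier5 to Ier5l and Ier2 to Ier5l lie above 1 in the 3 IgG libraries and below 1 in the 3 anti–VEGF-B libraries, while the Ier5 to Cd69 ratios of the groups overlap. The side of 1 rests on the transcript lengths behind FPKM, which are not given.

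How the libraries of a treatment deviated from their own mean was not used to choose the genes. Ier5 and Cd69 deviated together, with a Pearson correlation of 0.99 over the 6 libraries after the group means were taken out. Both were highest in replicate 2 and lowest in replicate 3 with IgG, and highest in replicate 1 and lowest in replicate 3 with anti–VEGF-B. Ier2 gave 0.90 with Ier5 and 0.83 with Cd69. Ier5l gave -0.47 with Ier5, -0.48 with Cd69 and -0.17 with Ier2. Ier3 gave between 0.16 and 0.42 with the other 4 genes. These correlations rest on 3 libraries a group and share the libraries' scaling, and they are given without a test.

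The genes whose log2 values followed each gene most closely over all 6 libraries, by Pearson correlation, were Osbpl11, Chd1 and Dexi for Ier2 (0.998 each), Rbmxl1, Ddx21 and Klf10 for Ier5 (0.999 each) and Rsl1d1, B4galt5 and Fam98b for Cd69 (0.998, 0.998 and 0.997). Klf10, at 11.5 FPKM under IgG and 6.40 under anti–VEGF-B, is an immediate early zinc finger factor. For Ier3 they were Dusp7, Prdx1 and Cbwd1 (0.995, 0.993 and 0.990), and for Ier5l Gadd45g, Ppme1 and Bcar1 (0.995, 0.994 and 0.994). Much of each value reflects the difference between the treatments, on which the genes were chosen.

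The nearest tested genes on the chromosome, some of them far away, did not share the pattern throughout. No other gene of the RefSeq annotation (GRCm38.p6) overlapped any of the 5. Nacc1, a transcriptional corepressor gene 7631 bases from Ier2 on the same strand, fell from 11.2 ± 2.12 to 6.43 ± 1.20 FPKM (a log2 fold change of -0.72, limma adjusted p = 0.0118). Ccdc130, the nearest tested gene on the other side, lies 390951 bases away. It was at 2.16, 2.06 and 2.17 FPKM with IgG and at 2.85, 1.81 and 1.64 with anti–VEGF-B, with groups that overlapped. Around Ier5, the nearest tested genes were Stx6, 59079 bases away, and Glul, 1186638 bases away. Stx6 was at 2.33 ± 0.442 FPKM under IgG and 2.08 ± 0.570 under anti–VEGF-B (limma adjusted p = 0.570). Glul was at 24.1 ± 1.51 and 21.7 ± 0.467 FPKM (limma adjusted p = 0.189), and neither gene was called.

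The nearest tested genes on either side of Ier5l were Ptpa, which encodes an activator of PP2A, and Ntmt1, 333607 bases away. Ptpa, 23731 bases away, was at 7.72 ± 0.616 FPKM under IgG and 6.03 ± 0.705 under anti–VEGF-B (limma adjusted p = 0.0548). The alternatives gave it adjusted p from 0.0433 to 0.416, and 0.0493 when anti–VEGF-B replicate 1 was left out. Ntmt1 was at 3.12 ± 1.10 and 3.38 ± 0.627 FPKM (limma adjusted p = 0.668). Beside Ier3, Flot1, which starts 307 bases past its end on the same strand, was at 10.8 ± 0.892 and 9.26 ± 0.720 FPKM (limma adjusted p = 0.137). Ddr1, 117063 bases away on the other side, fell from 24.1 ± 3.22 to 14.8 ± 2.76 FPKM (a log2 fold change of -0.68, limma adjusted p = 0.0118).

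Cd69 lies in a cluster of C-type lectin genes. Of 15 genes listed for this cluster 4 were in the table, and the 2 above the filter were both lower with anti–VEGF-B. Among all genes tested 23.8% were called lower. Clec2d, the nearest tested gene to Cd69 at 80791 bases, encodes a ligand of an NK receptor and fell from 69.6 ± 6.18 to 51.4 ± 9.40 FPKM (a log2 fold change of -0.44, limma adjusted p = 0.0343). This call was lost in 7 of 13 alternatives. Among them were those without anti–VEGF-B replicate 2 or 3 or IgG replicate 2 or 3 (limma adjusted p = 0.0595 to 0.109, against 0.0330 to 0.202 over the alternatives). Clec2i fell from 3.90 ± 0.812 to 1.39 ± 0.114 FPKM (a log2 fold change of -1.03, limma adjusted p = 0.00469). Klrd1, at 0.301 ± 0.241 FPKM under IgG and 0.383 ± 0.0810 under anti–VEGF-B, and Klrk1, at most 0.0943 FPKM, were under the filter. Members of this family are similar in sequence, so reads could have been split among them. On the far side of Cd69, the nearest tested gene was the autophagy gene Gabarapl1, 257724 bases away. Gabarapl1 fell from 27.1 ± 1.71 to 20.1 ± 1.64 FPKM (a log2 fold change of -0.41, limma adjusted p = 0.0125). After median centring it was -0.21 and not called (0.0908, the highest of 0.0126 to 0.0908 over the alternatives).

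Among 66 other immediate early genes, 63 were tested, and calls went in both directions. Of these, 22 fell, 15 rose and 26 did not pass, so that 58.7% were called where 28.7% of all genes were. This list and those below were written by hand with earlier results of these data known. Nothing is therefore read from their shares of calls. The median log2 fold change of the immediate early genes, -0.17, was close to that of all genes. After median centring 11 fell and 18 rose. Only 16 genes passed when anti–VEGF-B replicate 3 was left out.

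The EGR and NR4A factors, induced directly by T cell receptor signals, had 4 of 6 tested members lower and none higher. Of all genes tested 23.8% were called lower and 4.87% higher. Egr1 was at 21.3, 39.0 and 24.1 FPKM with IgG and at 8.72, 8.62 and 4.49 with anti–VEGF-B, and the groups did not overlap. Its log2 fold change of -1.82 was the furthest from 0 in the list (limma adjusted p = 0.00491). Among the AP-1 factors 4 of 7 fell and 1 rose. Fosl1 fell from 2.39 ± 0.904 to 0.873 ± 0.233 FPKM (-0.83, limma adjusted p = 0.0129) and was above the filter only through the IgG libraries. Jun and Junb had log2 fold changes of -0.042 and 0.020 and did not pass.

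The other transcription factors were divided, with 4 of 16 lower and 5 higher. Nfkbid, which encodes an atypical IκB protein, fell from 15.9 ± 2.77 to 7.07 ± 1.10 FPKM (-1.06, limma adjusted p = 0.00488). Csrnp1, a serum- and AXIN1-induced nuclear factor gene, was at 170, 86.9 and 185 FPKM with IgG and at 260, 272 and 282 with anti–VEGF-B. Like Ier5l it was lowest in IgG replicate 2, and its log2 fold change was 0.95 (limma adjusted p = 0.0189). This call was lost without anti–VEGF-B replicate 3 (adjusted p = 0.0584, against 0.00736 to 0.137 over the alternatives).

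Of the 16 signaling brakes, 5 fell and 4 rose. Dusp6, an ERK phosphatase gene that ERK itself induces, fell from 7.59 ± 1.43 to 3.09 ± 0.0892 FPKM (-1.06, limma adjusted p = 0.00469). Spry1, another brake on ERK signaling, rose from 5.87 ± 0.545 to 9.37 ± 0.927 FPKM (0.59, limma adjusted p = 0.00783). The genes of mRNA decay and growth arrest had 3 of 11 lower and 3 higher, among them Per1, a clock gene, which rose from 61.2 ± 5.54 to 99.7 ± 8.20 FPKM (0.70, limma adjusted p = 0.00488). Gadd45g, a stress gene and the closest match to Ier5l above, rose from 182 ± 19.2 to 280 ± 25.2 FPKM (0.62, limma adjusted p = 0.00634). Of the secreted and surface genes, Tnf fell from 28.4 ± 3.67 to 16.0 ± 1.02 FPKM (limma adjusted p = 0.00471). Il2 was at 0.801, 0.583 and 0.292 FPKM with IgG and at 1.33, 1.77 and 1.42 with anti–VEGF-B (limma adjusted p = 0.0104). With a mean of 1.03 FPKM over all libraries, Il2 was above the filter only through the anti–VEGF-B libraries.

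**Figure D4:**
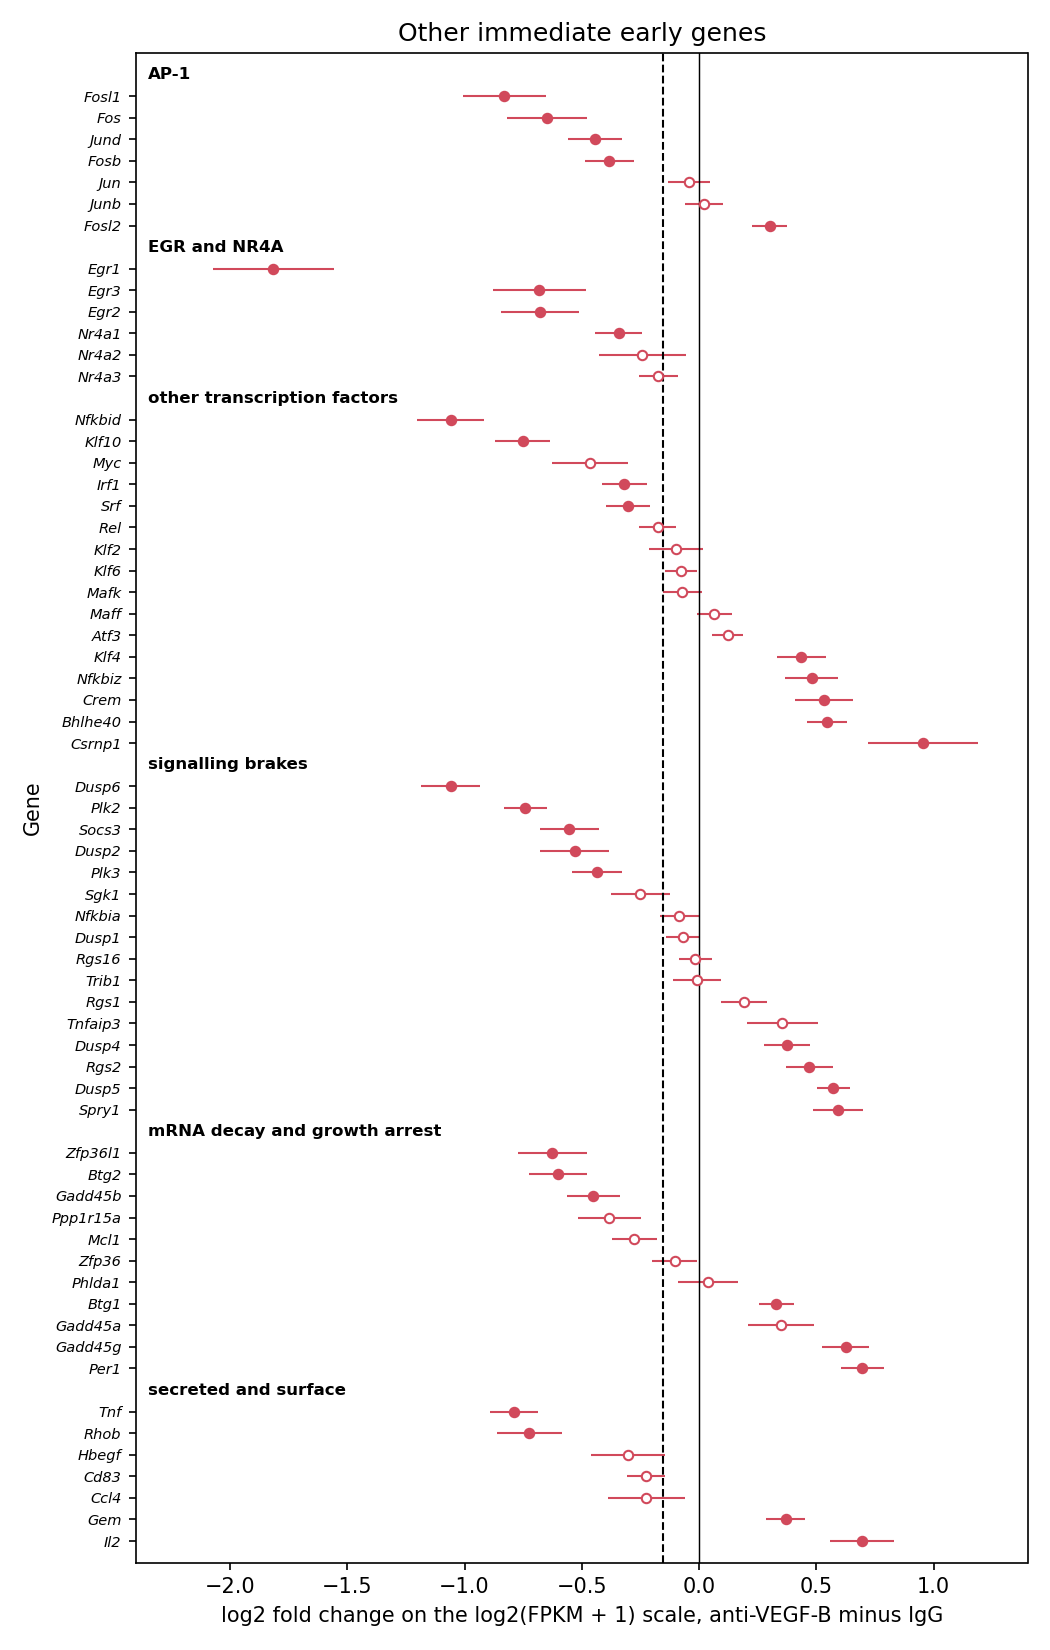
Log2 fold changes of the 63 other immediate early genes tested, grouped by role, with moderated standard errors of limma as bars, filled points for an adjusted p under 0.05 in limma and a dashed line at the median of all genes tested (-0.15). Filled points lie on both sides, 22 to the left of 0 and 15 to the right, with Egr1 furthest left at -1.82 and Csrnp1 furthest right at 0.95.

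Kinases and factors upstream of immediate early transcription were called at 21.4%, below the 28.7% of all genes tested, of which 23.8% were called lower. Of 28 genes of ERK, SRF and CREB signaling tested, 6 fell and none rose. Their median log2 fold change was -0.11, against -0.15 for all genes tested. Elk3, an SRF partner gene, fell from 3.82 ± 0.409 to 2.23 ± 0.460 FPKM (-0.58, limma adjusted p = 0.0138), with an adjusted p of 0.0536 without anti–VEGF-B replicate 3 (0.0140 to 0.0851 over the alternatives). Braf, a kinase gene of the ERK route, had 2.96 ± 0.450 and 1.95 ± 0.0681 FPKM (-0.42, limma adjusted p = 0.0242) and lost its call in 8 of 12 alternatives, among them those without any 1 library other than IgG replicate 1 (0.0176 to 0.168 over the alternatives). The split turned to 2 lower and 4 higher after quantile normalization and 2 and 3 after median centring. Only 3 genes passed without anti–VEGF-B replicate 2 or IgG replicate 3, 2 without IgG replicate 2 and 1 when anti–VEGF-B replicate 3 was left out.

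Among the listed subunits and regulators of PP2A, the phosphatase that IER2 and IER5 bind, 4 of 21 tested fell and 2 rose. These are 28.6% called, against 28.7% of all genes tested, and the median log2 fold change was -0.059. The list was not exhaustive and did not hold Ppme1, named above beside Ier5l, which was called higher (0.32). Neither tested B55 subunit passed, with Ppp2r2a at 41.7 ± 1.20 FPKM under IgG and 39.8 ± 0.869 under anti–VEGF-B, and Ppp2r2d at 20.5 ± 2.41 and 20.4 ± 0.675. The catalytic subunit gene Ppp2ca rose from 51.5 ± 2.83 to 63.4 ± 2.06 FPKM (0.29, limma adjusted p = 0.0190), a call lost without anti–VEGF-B replicate 3 or IgG replicate 2 (0.0758 and 0.0573, against 0.0113 to 0.0758 over the alternatives). Strn3, a regulatory subunit gene, fell from 9.45 ± 1.11 to 6.30 ± 0.206 FPKM (-0.51, limma adjusted p = 0.0101). Ensa, Ppp2r5d and Igbp1 were also called (log2 fold changes -0.91, -0.33 and 0.22, limma adjusted p = 0.0416, 0.0409 and 0.0386), but each lost the call in 7 or 8 of 13 alternatives, with adjusted p up to 0.195, 0.274 and 0.124. The split was 1 lower and 3 higher after quantile normalization and 1 and 4 after median centring. Only 1 gene passed without anti–VEGF-B replicate 3 or IgG replicate 2, and 2 without IgG replicate 1 or 3.

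Of 20 genes tested among the HSF factors and the heat shock genes that HSF1 drives, 7 rose and 3 fell (50.0% called), and the median log2 fold change was 0.25. Hsf1 itself was under the filter, at 0.930 ± 0.186 FPKM under IgG and 0.849 ± 0.196 under anti–VEGF-B. Hspa1a, an inducible HSP70 gene, was at 66.9, 40.2 and 71.6 FPKM with IgG and at 83.4, 114 and 105 with anti–VEGF-B (0.78, limma adjusted p = 0.0223), so that it too was lowest in IgG replicate 2 and highest in anti–VEGF-B replicate 2. It lost its call without anti–VEGF-B replicate 2 or 3 (0.0630 and 0.0669, against 0.0199 to 0.144 over the alternatives), and its reads could have been split with its near copy Hspa1b. Dnajb4, a DNAJ cochaperone gene, was at 4.65, 4.11 and 5.04 FPKM with IgG and rose to 12.7 ± 0.739 (limma adjusted p = 0.00229), and Hspb1 rose from 1.16 ± 0.388 to 2.62 ± 0.484 FPKM (0.75, limma adjusted p = 0.0121). Hspd1, the mitochondrial chaperonin gene, fell from 49.0 ± 2.37 to 34.8 ± 1.81 FPKM (-0.48, limma adjusted p = 0.00607). Chordc1 and Hsf2 were also called lower (-0.33 and -0.29, limma adjusted p = 0.0394 and 0.0497), but lost the call in 8 and 11 of 12 alternatives, with adjusted p up to 0.418 and 0.682. The split was 1 lower and 7 higher after quantile normalization and 1 and 9 after median centring, and 5 genes passed without anti–VEGF-B replicate 2 and 4 without replicate 3.

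Of 24 tested genes for surface proteins of activated T cells, the group to which Cd69 belongs, 11 fell and 1 rose (50.0% called), with a median of -0.22. Il2ra, which encodes the IL-2 receptor α chain CD25, was at 94.9, 150 and 106 FPKM with IgG and at 65.7, 57.5 and 51.8 with anti–VEGF-B (-0.97, limma adjusted p = 0.00664). Its libraries stood apart and were highest in IgG replicate 2 and lowest in anti–VEGF-B replicate 3, as for Ier5 and Cd69. Cd274, the PD-L1 gene, fell from 34.8 ± 4.74 to 20.3 ± 1.75 FPKM (-0.75, limma adjusted p = 0.00499). Ly6a fell from 53.7 ± 32.5 to 19.3 ± 2.34 FPKM (-1.28, limma adjusted p = 0.0186), a call lost when anti–VEGF-B replicate 3 was left out (0.0604, against 0.00837 to 0.139 over the alternatives). The amino acid transporter gene Slc3a2 rose from 47.3 ± 3.13 to 59.7 ± 5.47 FPKM (0.33, limma adjusted p = 0.0257), a call lost without anti–VEGF-B replicate 1 or 2 or IgG replicate 2 or 3 (0.0545 to 0.0787, against 0.0117 to 0.101 over the alternatives). The split was 8 lower and 2 higher after quantile normalization and 4 and 4 after median centring. Here 4 genes passed without anti–VEGF-B replicate 2, 5 without anti–VEGF-B replicate 3 or IgG replicate 2 and 6 without IgG replicate 3.

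S1pr1, the receptor that CD69 holds back, was at 2.00, 2.72 and 2.18 FPKM with IgG and at 1.75, 1.43 and 1.53 with anti–VEGF-B, so that its groups, like those of Cd69, did not overlap. The log2 fold change of S1pr1 was -0.36 (limma adjusted p = 0.0460), and it kept this call in 2 of 12 alternatives, not without anti–VEGF-B replicate 1, 2 or 3 or IgG replicate 2 or 3 (0.0377 to 0.356 over the alternatives). Klf2, the factor that drives S1pr1, was at 8.10 ± 1.26 and 7.46 ± 0.490 FPKM (limma adjusted p = 0.538). Of 18 genes of egress and quiescence tested, 8 fell and 2 rose (55.6% called), with a median of -0.31. Of all genes tested 28.7% were called, 23.8% lower and 4.87% higher, with a median of -0.15. Btg1, Btg2 and Klf2 of this list were also counted among the immediate early genes above. Ccr7, the lymph node homing receptor gene, fell from 160 ± 33.4 to 83.1 ± 14.3 FPKM (-0.93, limma adjusted p = 0.00714), and the antiproliferative gene Btg2 from 35.8 ± 6.33 to 23.0 ± 2.16 (-0.60, limma adjusted p = 0.0115). Itga4, an integrin gene, was called lower (-0.51, limma adjusted p = 0.0248), but not without anti–VEGF-B replicate 1 or 3 (0.0683 and 0.0775, against 0.0180 to 0.138 over the alternatives). Foxo1, a quiescence factor, rose from 32.4 ± 2.45 to 45.6 ± 4.02 FPKM (0.48, limma adjusted p = 0.00875), and Btg1 from 194 ± 14.3 to 244 ± 4.11 (0.33, limma adjusted p = 0.0155). Btg1 lost its call in 3 of 13 alternatives, among them that without anti–VEGF-B replicate 3 (0.0595, against 0.0123 to 0.0736 over the alternatives). The split was 4 lower and 1 higher after quantile normalization and 2 and 2 after median centring, and 6 genes passed without anti–VEGF-B replicate 1 and 5 without replicate 3.

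The directions of the 5 genes held under every alternative run. As their groups did not overlap, only quantile normalization and median centring could have turned a direction. Over 12 alternatives for each gene the log2 fold change ran from -1.41 to -1.08 for Ier2, from -0.94 to -0.65 for Ier5, from 0.59 to 0.92 for Ier5l, from -0.41 to -0.15 for Ier3 and from -0.82 to -0.54 for Cd69. Actb, the β-actin gene used as a reference, was at 512 ± 15.0 FPKM under IgG and 490 ± 44.3 under anti–VEGF-B (limma adjusted p = 0.557).

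**Figure D5:**
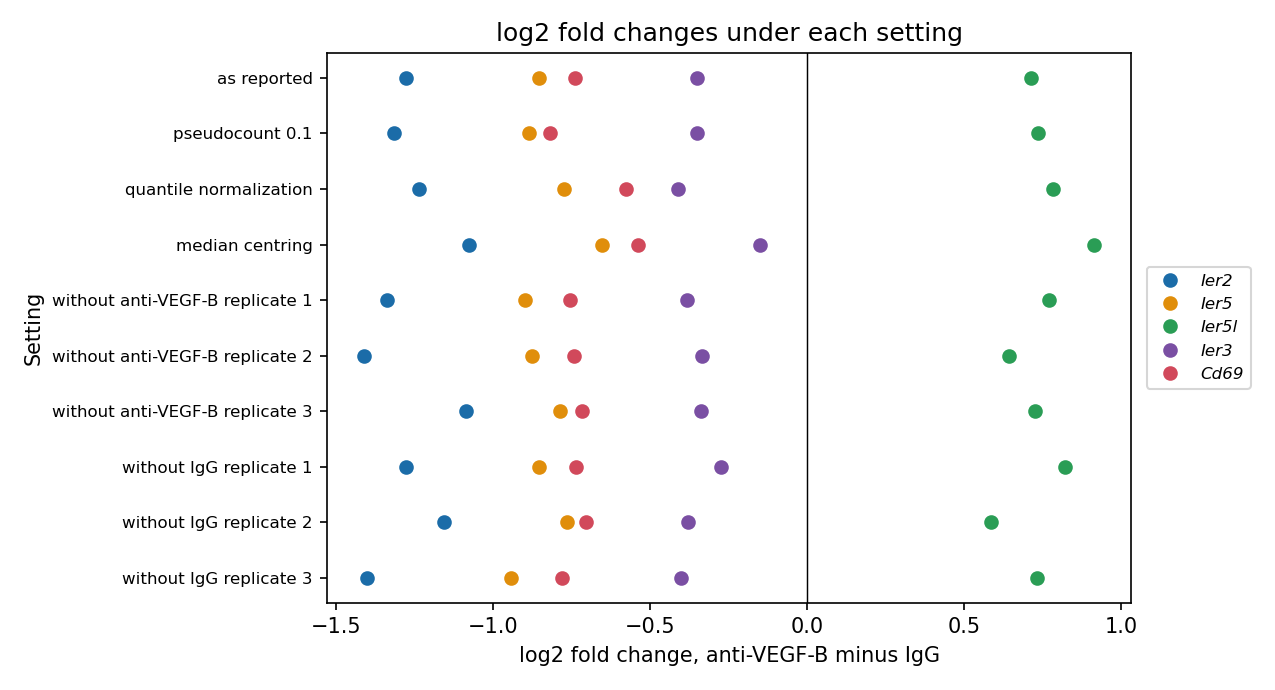
Log2 fold changes of the 5 genes (colours) as reported and under another pseudocount, 2 other scalings between libraries and without each library in turn, with a line at 0. Ier5l lies to the right of 0 and the other 4 genes to the left in every setting shown, with Ier3 closest to 0 at -0.15 after median centring. Only the 2 scalings could have moved a gene across 0.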

How the data were processed

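RNA of activated CD4+ T cells was measured in 3 anti–VEGF-B and 3 IgG libraries. Per the study's methods, stranded libraries were aligned to GRCm38/mm10 with hisat2 and quantified with StringTie and Ballgown. A single table of protein-coding genes was deposited, in FPKM. Although it is called raw data, it holds fractional values and was taken as FPKM, which leaves the depth unknown and allows no count model. Neither a normalization between libraries nor the strand setting of the quantification is given in the sources used here. Columns were matched to samples by treatment and replicate number, and 0 other columns of values per sample were present.

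Genes averaging 1 FPKM or more (8816) were fitted as log2(FPKM + 1) with limma 3.58.1 in R 4.3.3 (empirical Bayes with trend, no covariate) and adjusted over all genes tested (Benjamini-Hochberg, threshold 0.05). The fit was tested on simulated data. The members and gene lists were chosen with earlier results of these data known, and the lists were written by hand. Lists could share genes. Btg1, Btg2 and Klf2 were in the immediate early and the egress and quiescence lists. Cd83 was in the immediate early and surface protein lists, and Cd5 was both a surface protein and a T cell marker. Genes named from a list were the called genes with groups that did not overlap and the largest log2 fold changes (up to 5 a direction for the immediate early list and 3 for the others). Named as well were the nearest tested neighbours, the 3 closest correlates, all C-type lectins listed and genes on a direct line to a member. A gene that this rule names is not reported here. Jun and Junb were named after their values were seen. The alternatives changed the pseudocount, filter, scaling, moderation, replicate block and libraries.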

Additional observations from a re-analysis of the deposited data

How the results depend on the processing

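Under all alternatives, of which only the scalings between libraries could have turned a direction, the log2 fold changes of the 5 genes kept theirs. They moved by more than the spread between replicates after median centring for Ier3 (-0.15), Ier5 (-0.65), Ier5l (0.92) and Cd69 (-0.54), and for Cd69 also after quantile normalization (-0.58) and with a pseudocount of 0.1 (-0.82). These scalings bring the median of all genes from -0.15 to 0.049 and 0.0077. The differences in ratio between the genes moved by less than that spread. Of all genes tested, 1331 passed among those with a mean of at least 5 FPKM and 12 with no moderation of the variance. Leaving out 1 library gave 865 to 2469 calls. With an ordinary linear model in place of the limma moderation 0 genes of each of the 6 lists passed, while 38 immediate early genes, 7 of ERK, SRF and CREB signaling, 6 PP2A subunits, 9 heat shock genes, 9 surface proteins and 9 genes of egress and quiescence had an unadjusted p under 0.05. A mean of at least 5 FPKM left 1 call in ERK, SRF and CREB signaling. For egress and quiescence 5 genes passed after quantile normalization and 4 after median centring. Leaving out 1 library gave 16 to 35 immediate early calls, 1 to 9 of ERK, SRF and CREB signaling, 1 to 4 PP2A subunits, 4 to 10 heat shock genes, 4 to 11 surface proteins and 5 to 10 of egress and quiescence. Among named genes, those that changed sign had not passed the test. They were Ccdc130 (0.21 after quantile normalization and 0.17 after median centring), Stx6 (0.11 and 0.079), Klf2 (0.076 and 0.10), Glul (0.061 after median centring) and Ppp2r2a (0.14 after median centring), and, without 1 library, Ccdc130 (-0.20 to 0.075), Stx6 (-0.26 to 0.0044), Klf2 (-0.19 to 0.0081), Ntmt1 (-0.056 to 0.31) and Ppp2r2d (-0.046 to 0.093). The cause of these changes was not tested.

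No clear pairing of the libraries by replicate number was seen, though with 3 libraries a group a weak one could be missed. The deviations of same-numbered libraries from their group means correlated at -0.030, 0.11 and 0.089 over the 8816 genes, and not every library correlated best with its own number. With a replicate block 2578 genes passed, against 2528 without it. As FPKM carry no depth, no limit from counting can be given.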
